A study of Mus musculus with 4 samples.

Results

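The genes of the platelet-derived growth factor (PDGF) system were described in BVACs, brain vascular-associated cells profiled by single-cell RNA sequencing. The 6 members were taken by gene symbol from the 31053 genes of the count matrices. They are the ligand genes Pdgfa, Pdgfb, Pdgfc and Pdgfd and the receptor genes Pdgfra and Pdgfrb. BVACs were isolated from whole brain, without cerebellum, striatum, brainstem and olfactory bulbs, by magnetic capture with antibodies against CD31, a surface protein of endothelial cells (ECs). All mice were male wild-type C57BL/6 aged 12 to 14 weeks. In chronic social defeat (CSD) a mouse lived for 14 days in the cage of an aggressive CD-1 mouse behind a clear perforated partition that was lifted for 5 minutes a day. In the home cage (HC) condition a mouse shared a divided cage for 14 days and the partition was never lifted. The study's methods give its neighbour as a CD-1 mouse too, and the labels do not name the neighbour. Each condition had 2 libraries, and each library was a pool of 4 mice, so that n = 2 per condition and a p-value measures the spread between pools.

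PDGFs are secreted dimers that act through a pair of receptor tyrosine kinases, PDGFRα and PDGFRβ. In the brain, PDGF-B made by ECs is retained at the vessel wall and recruits pericytes, the cells that wrap capillaries, through PDGFRβ, while PDGF-A acts through PDGFRα on oligodendrocyte precursor cells (OPCs) and fibroblasts. PDGF-C and PDGF-D are secreted in an inactive form and are activated when a protease removes their CUB domain, with PDGF-C acting mainly through PDGFRα and PDGF-D through PDGFRβ.

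In the GRCm38 annotation (GENCODE vM21) all 6 are protein-coding genes. Pdgfa lies on the minus strand at chr5:138976014-138997370, and Pdgfra on the plus strand of the same chromosome at chr5:75152292-75198215. Pdgfb lies on the minus strand at chr15:79995874-80014977, Pdgfc on the plus strand at chr3:81036416-81214040 and Pdgfd on the plus strand at chr9:6168584-6378850. Pdgfrb lies on the plus strand at chr18:61045150-61085061 and overlaps no other annotated gene. On their own strand, Pdgfb overlaps the microRNA gene Mir7213 and Pdgfra overlaps Mir7025, and the other ligand genes overlap none.

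The 4 libraries held 27297599 to 30361474 unique molecular identifiers (UMIs, each a captured mRNA molecule counted once). Barcodes counted as cells if they held 500 UMIs or more from 250 genes or more, with up to 25% of them mitochondrial, which left 14415 cells (2553 to 4934 per library, with 0 to 9 barcodes shared between libraries). Library CSD 2 stood apart, with 32.6% of its UMIs in cells against 51.8% to 56.8% in the others. Some results that rest on it are therefore also given without it. Each cell was gated on marker genes that included none of the 6 members, so that a class name stands for a gate. Of all cells, 851 met more than 1 gate and were set aside as mixed, and 221 met none. A level is the UMIs of a gene scaled to 1000000 UMIs of its class in a library (CPM), and free RNA is the same quantity in barcodes of at most 50 UMIs. The leading genes of the classes used below included markers of their gates, the astrocyte gate was also led by Fabp7 and Npy, and the gate for monocytes was led by neutrophil genes and is left unnamed. Of the cells, 4953 were ECs, 4552 microglia, 1748 choroid plexus epithelium, 497 pericytes, 440 arterial smooth muscle cells (SMCs), 370 astrocytes, 97 OPCs and 90 fibroblasts.

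Each member had its own distribution over the classes, shown in the plot of levels by class. Pdgfa was highest in arterial SMCs and arterial ECs, Pdgfb in ECs and microglia, Pdgfc in arterial SMCs, Pdgfd in ECs, Pdgfra in OPCs and fibroblasts, and Pdgfrb in pericytes. Among the 11 classes with at least 10 cells in every library, counting EC subtypes in place of all ECs, the library ranges of the first and second class did not overlap for Pdgfa, Pdgfc, Pdgfra and Pdgfrb, and overlapped for Pdgfb and Pdgfd. The OPCs, with 9 cells in library HC 2, are not among these 11 classes. Nor are the border-associated macrophages described below, with 6 cells in library CSD 2, whose Pdgfc range lay within that of arterial SMCs.

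**Figure D1:**
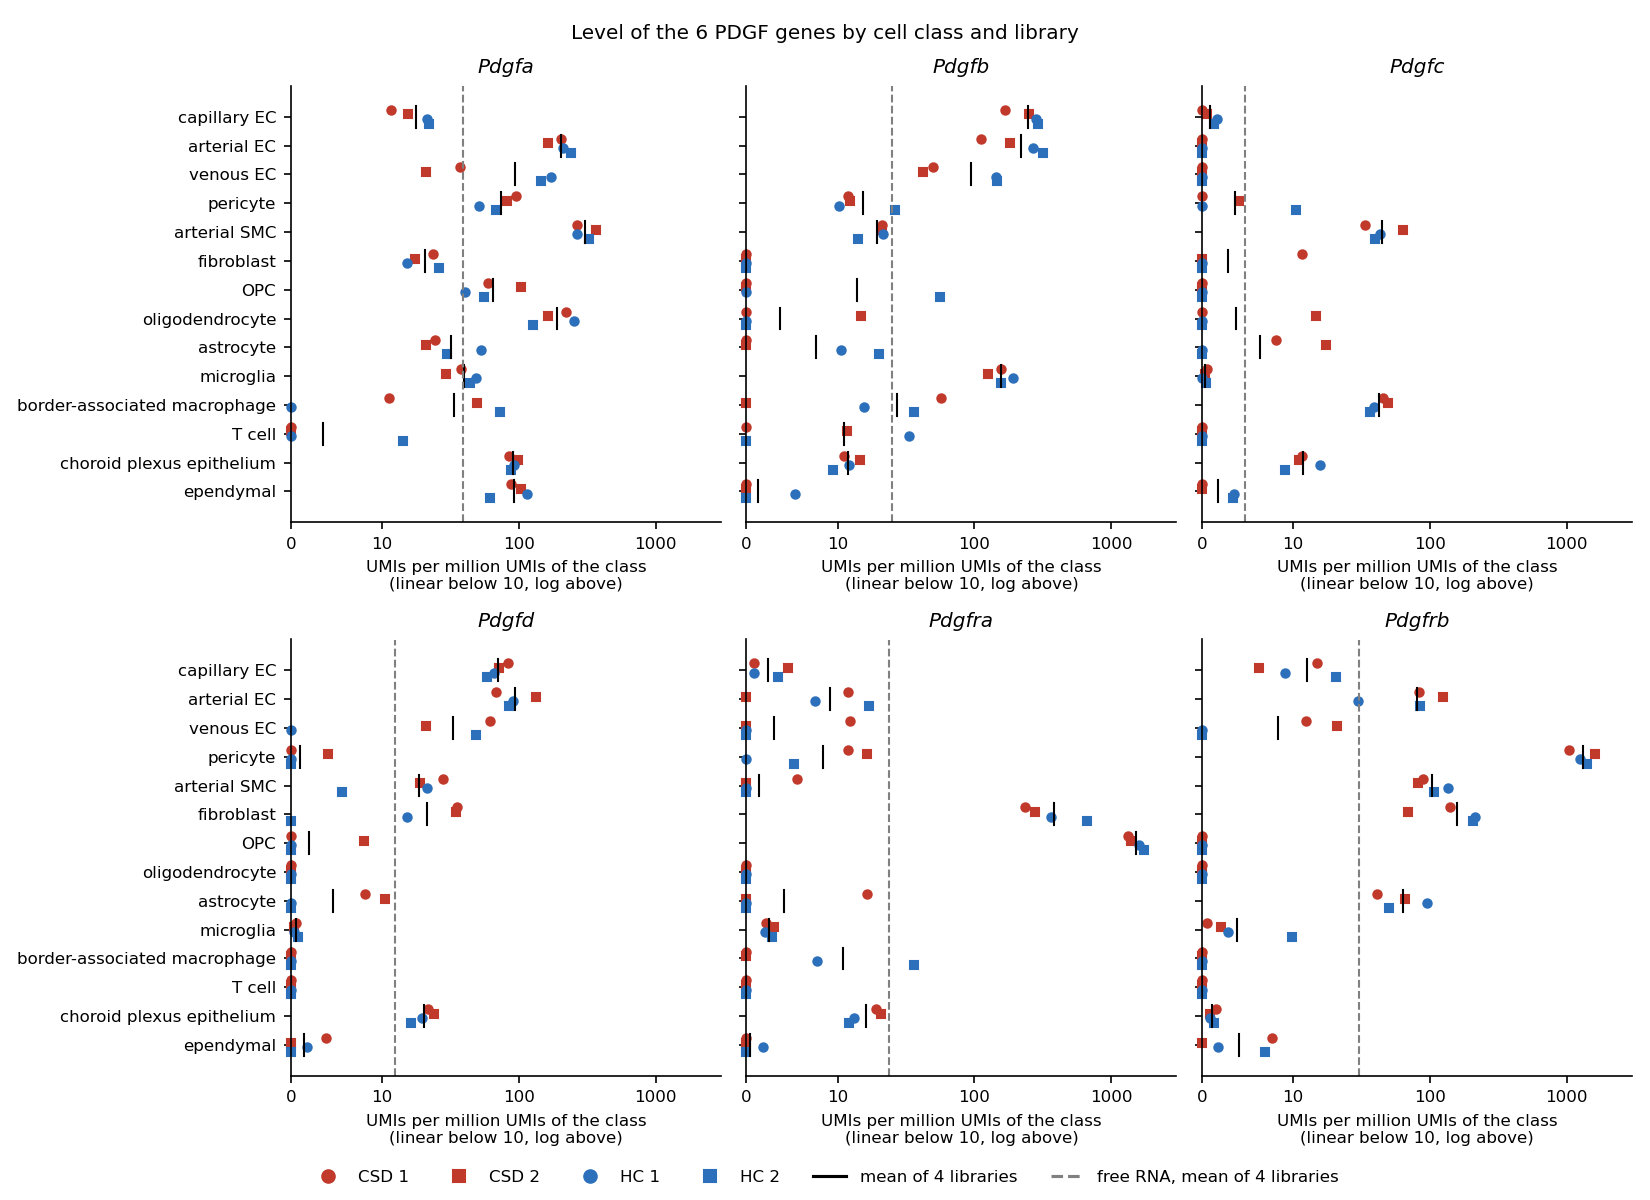
Level of the 6 PDGF genes (CPM of the class, linear below 10 and logarithmic above) in 14 gated classes. Each point is 1 library (red CSD, blue HC), the black line is the mean of the 4 libraries and the dashed line the mean level in free RNA. Pdgfrb in pericytes (1031 to 1599 CPM) and Pdgfra in OPCs (1334 to 1733 CPM) were the highest levels.

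Pdgfa, the gene of the PDGF-A chain, was measured in arterial SMCs at 264 CPM in library CSD 1, 365 in CSD 2, 265 in HC 1 and 324 in HC 2 (mean 304 ± 49.1, SD, n = 4). All 4 libraries lay far above free RNA, at a mean of 39.4 CPM, and above every library of the next class, arterial ECs. In arterial ECs the level was 204, 162, 210 and 239 CPM in the same order of libraries (203.7 ± 31.4). Oligodendrocytes reached 191 ± 56.4 CPM, from 23 UMIs in 34 cells. Lower levels were found in ependymal cells (91.7 ± 22.7 CPM), choroid plexus epithelium (90.8 ± 6.08 CPM) and pericytes (74.6 ± 19.0 CPM). The library ranges of ependymal cells and choroid plexus epithelium overlapped, as did those of choroid plexus epithelium and pericytes, so their order was not separated. Microglia (39.97 ± 8.55 CPM), astrocytes (32.1 ± 14.4), fibroblasts (20.5 ± 5.03) and capillary ECs (17.6 ± 4.98) were near or below the mean of free RNA.

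Within ECs, Pdgfa followed the arterial gate. Arterial ECs made up 3.73% of ECs and held 7.48% of all UMIs of ECs and 34.7% of their Pdgfa UMIs. Capillary ECs made up 79.7% of ECs and held 69.4% and 27.7%. ECs that met more than 1 subtype gate held 17.1% and 28.6%. The difference between arterial and capillary ECs was 3.55 on the log2 scale (SE 0.24, adjusted p = 2.47e-14, edgeR). The same gate held RNA of mural cells, since the 7 SMC markers summed to 644 to 1802 CPM in arterial ECs against 76.0 to 175 in capillary ECs, with Cnn1 at 0. That sum was 2.55% of the sum in SMCs, and Pdgfa in arterial ECs was at 66.9% of its level in SMCs. The part of mural RNA in that level was not tested. In venous ECs Pdgfa was at 37.1 and 20.9 CPM in the CSD libraries and at 173 and 146 CPM in the HC libraries, from 13 UMIs in all. It exceeded capillary ECs by 2.05 (SE 0.61, adjusted p = 0.0271), a call that was lost without library CSD 1 (2.13, adjusted p = 0.123), without library HC 1 (1.61, adjusted p = 0.542) or without library HC 2 (2.01, adjusted p = 0.103). The tests between EC subtypes called 15.1% of all genes in arterial and 3.43% in venous against capillary ECs. No member passed the filter on low counts for CSD against HC in venous ECs. The order of CSD and HC libraries there was therefore not tested, and the share of all genes with this order was not computed.

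Pdgfb, the gene of the PDGF-B chain, was measured at 168, 251, 284 and 290 CPM in capillary ECs of libraries CSD 1, CSD 2, HC 1 and HC 2 (248 ± 56.2, n = 4). Arterial ECs were at 112, 182, 270 and 315 CPM (220 ± 90.8). In both subtypes library CSD 1 was lowest and library HC 2 highest. Arterial and capillary ECs did not differ by the test (log2 difference -0.21, SE 0.15, adjusted p = 0.440), while venous ECs were lower than capillary ECs by the test (-1.67, SE 0.38, adjusted p = 0.000681), with 49.5, 41.8, 144 and 146 CPM from 14 UMIs. That difference had an adjusted p of 0.0677 with DESeq2. The order of CSD and HC libraries in venous ECs was not tested for Pdgfb either.

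Microglia carried Pdgfb too, at 156 CPM in library CSD 1, 125 in CSD 2, 192 in HC 1 and 156 in HC 2 (157 ± 27.4). Their range overlapped that of ECs (153 to 282 CPM, mean 231), and ECs and microglia did not differ by the test (0.24, SE 0.16, adjusted p = 0.201), in a comparison that called 65.4% of all genes. The test scaled the sums by TMM factors of 1.06 to 1.17 in ECs and 0.82 to 0.94 in microglia. The tested difference was therefore smaller than that between the CPM levels, and it rests on this scaling. In microglia the 7 EC markers summed to 0.613% of their EC level, and Pdgfb was at 68.0% of its EC level. The part of EC RNA in that Pdgfb level was not tested. Of all Pdgfb UMIs in cells, 42.9% lay in ECs and 39.7% in microglia. Levels in arterial SMCs (19.4 ± 3.54 CPM), pericytes (15.3 ± 7.48) and choroid plexus epithelium (11.8 ± 2.12) were under the mean of free RNA, 24.9 CPM. No fibroblast had a UMI of Pdgfb, and 0 of 90 cells allows a share of cells with a UMI of up to 3.33%, taken as 3 counts of the total, a limit for detection and not for expression.

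Pdgfc was the sparsest member, with 475 UMIs in all cells. It was measured at 33.6, 63.3, 42.9 and 39.5 CPM in arterial SMCs of libraries CSD 1, CSD 2, HC 1 and HC 2 (44.8 ± 12.9). Border-associated macrophages, phagocytes along vessels and meninges, were at 45.4, 49.5, 38.9 and 36.3 CPM, although from 11 UMIs in 112 cells, 6 of them in library CSD 2. The range of these macrophages lay within that of arterial SMCs. Choroid plexus epithelium followed at 11.8 ± 2.75 CPM, above the free RNA mean of 4.75 CPM, and held 69.7% of all Pdgfc UMIs and 48.9% of all UMIs in cells. ECs were at 1.02 ± 0.771 CPM, and no arterial EC had a UMI of Pdgfc, where 0 of 185 cells allows a share of cells with a UMI of up to 1.62%.

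Pdgfd was measured at 83.8, 71.5, 65.3 and 58.9 CPM in capillary ECs of libraries CSD 1, CSD 2, HC 1 and HC 2 (69.9 ± 10.6). Arterial ECs were at 67.9, 134, 89.9 and 85.2 CPM (94.2 ± 28.0) and venous ECs at 32.8 ± 27.7 CPM, and neither differed from capillary ECs by the test (0.32, SE 0.23, adjusted p = 0.443, and -1.08, SE 0.59, adjusted p = 0.470). ECs were thus the class with the highest level, with 43.9% of all Pdgfd UMIs and 14.3% of all UMIs in cells. Choroid plexus epithelium held a like share of Pdgfd UMIs, 42.5%, with 48.9% of all UMIs in cells. In microglia, the other large class with Pdgfb, 6 UMIs of Pdgfd were found in 4552 cells, and ECs were higher by 6.59 (SE 0.26). The pooled level in ECs was 126 times higher (counting interval 57.7 to 346). Pdgfd passed the filter on low counts through ECs, so this test could hardly have gone the other way. Choroid plexus epithelium (20.4 ± 3.26 CPM) and arterial SMCs (18.5 ± 9.38 CPM) were closer to free RNA, at a mean of 12.4 CPM.

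Pdgfra, the receptor gene of OPCs, was measured there at 1334 CPM in library CSD 1, 1397 in CSD 2, 1587 in HC 1 and 1733 in HC 2 (1513 ± 182). Fibroblasts were second, at 234, 277, 365 and 660 CPM (384 ± 192), and their highest library lay below the lowest library of OPCs. The difference was -2.07 (SE 0.27, adjusted p = 3.71e-09, with 50.7% of genes called), in a test added after the data were seen that kept the library of 9 OPCs. The OPC markers summed to 17.3 to 137 CPM in fibroblasts against 6260 to 6737 in OPCs, with Olig2, Neu4 and Lhfpl3 at 0. The part of OPC RNA in the fibroblast level was not tested. Astrocytes held 2 UMIs of Pdgfra in 370 cells, and the pooled level in OPCs was 431 times higher (counting interval 119 to 3572). In ECs (3.69 ± 1.56 CPM), microglia (2.54 ± 0.520) and arterial SMCs (1.40 ± 2.80) it was below the mean of free RNA, 23.6 CPM.

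Pdgfrb, the receptor gene of mural cells, was measured in pericytes at 1031 CPM in library CSD 1, 1599 in CSD 2, 1245 in HC 1 and 1399 in HC 2 (1319 ± 240). The lowest pericyte library lay above every library of the classes that followed, fibroblasts at 141, 69.2, 213 and 207 CPM (157 ± 67.3) and arterial SMCs at 89.5, 82.2, 136 and 107 CPM (104 ± 23.9). The ranges of fibroblasts and arterial SMCs overlapped. Lower still were arterial ECs (80.8 ± 38.7 CPM) and astrocytes (63.1 ± 23.9 CPM), while capillary ECs (12.7 ± 6.35 CPM) and microglia (3.84 ± 4.11 CPM) were below the mean of free RNA, 30.3 CPM. No OPC had a UMI of Pdgfrb, and 0 of 97 cells allows a share of cells with a UMI of up to 3.09%.

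Pericyte markers were present in the classes with a low level of Pdgfrb. Relative to pericytes, arterial SMCs held 4.08% of the sum of the 7 pericyte markers and 7.86% of the Pdgfrb level, and fibroblasts 3.68% and 11.9%. Astrocytes held 1.58% of the markers, with Abcc9 at 0, and 4.79% of Pdgfrb. In arterial ECs the markers stood at 12.6% and Pdgfrb at 6.13%, so that there Pdgfrb was lower relative to pericytes than the marker sum. The part of pericyte RNA in these levels was not tested.

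Ligand and receptor genes separated pericytes from their neighbours in the vessel wall, as the plot of differences between classes shows. Pericytes exceeded arterial SMCs in Pdgfrb by 3.49 (SE 0.16, adjusted p = 2.15e-16) and were lower in Pdgfa (-2.24, SE 0.20, adjusted p = 1.51e-10), in a comparison that called 47.7% of all genes. Pdgfc was also lower in pericytes (-3.38, SE 0.58), where 3 UMIs were found. The pooled level in arterial SMCs was 8.93 times higher (counting interval 2.96 to 44.1). Pdgfc passed the filter on low counts through arterial SMCs, so its test could hardly have gone the other way. Against fibroblasts, pericytes were higher in Pdgfrb (3.01, SE 0.28, adjusted p = 1.25e-06), with 42.2% of genes called. They were lower in Pdgfra (-5.25, SE 0.48), where 6 UMIs were found in pericytes. The pooled level in fibroblasts was 39.6 times higher (counting interval 17.6 to 110). Pdgfra passed the filter on low counts through fibroblasts, so its test could hardly have gone the other way.

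ECs and pericytes had opposite members of the pair of PDGF-B and its receptor. ECs exceeded pericytes in Pdgfb by 3.92 (SE 0.30, adjusted p = 2.93e-23) and were lower in Pdgfrb by the test (-5.90, SE 0.17, adjusted p = 5.52e-61), with 35.1% of genes called. Pdgfd, also a ligand of PDGFRβ, had 1 UMI in pericytes, and the pooled level in ECs was 42.0 times higher (counting interval 7.51 to 1663). With the mixed cells placed in the class of their highest score, an alternative added after the data were seen, the differences were 2.33 for Pdgfb and -4.41 for Pdgfrb. Pdgfa was lower in ECs than in pericytes (-0.81, SE 0.27, adjusted p = 0.0117), a call that was lost without library CSD 2 (-0.41, adjusted p = 0.425).

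**Figure D2:**
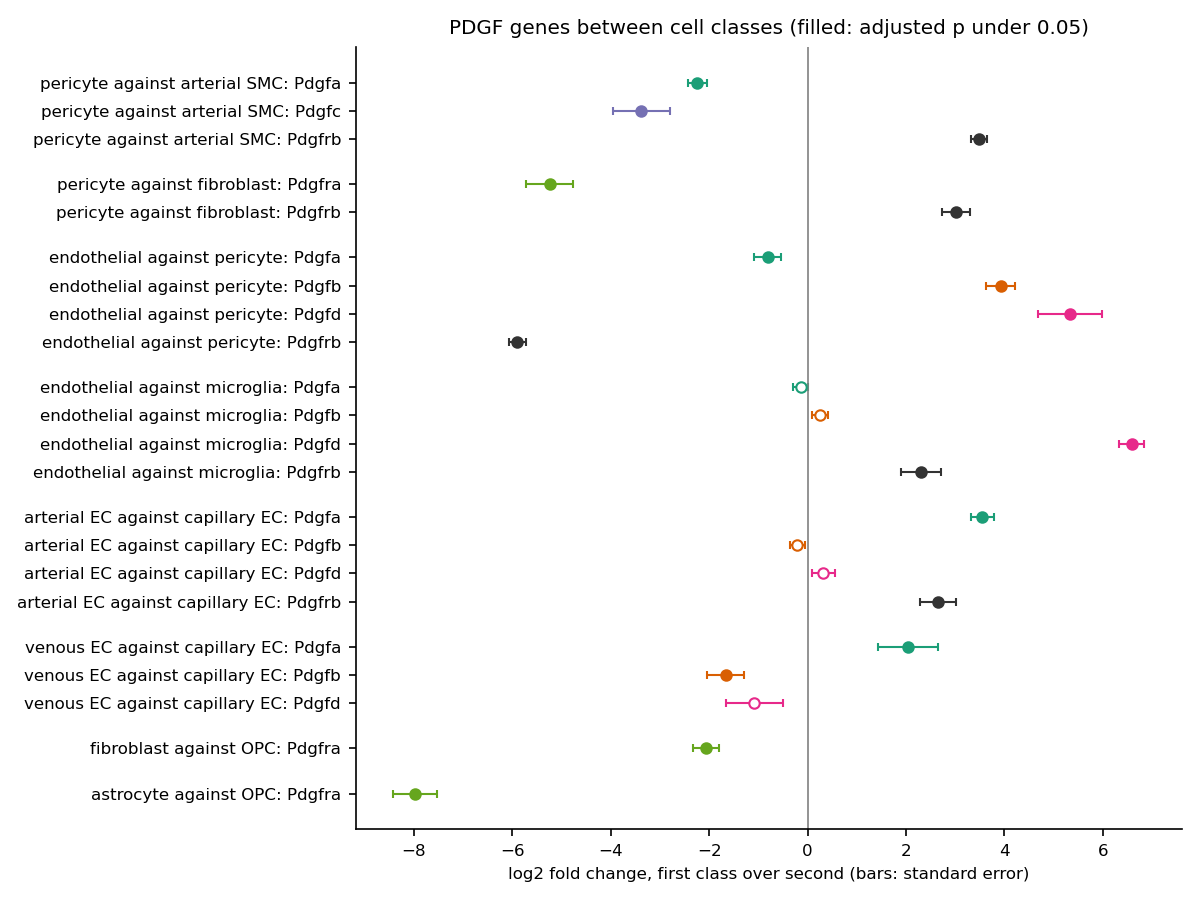
Log2 fold change of PDGF genes between 2 classes (first over second), with the standard error as bars, from sums of 4 libraries per class. Filled points passed an adjusted p of 0.05 in edgeR. The widest separations were Pdgfra in astrocytes against OPCs (-7.98), Pdgfd in ECs against microglia (6.59) and Pdgfrb in ECs against pericytes (-5.90). That of Pdgfra rests on 2 UMIs in astrocytes, in a comparison that called 39.4% of all genes, and that of Pdgfd on 6 UMIs in microglia. Both comparisons with OPCs were added after the data were seen and kept the library of 9 OPCs.

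Shares of positive cells, those with at least 1 UMI of a gene, followed the levels but also the depth of a class. Pdgfrb was found in 76.5% of pericytes (95% exact interval 72.5% to 80.1%, median 990 UMIs per cell) against 0.681% of microglia, a class that should lack PDGFRβ (median 2080 UMIs). After each cell was thinned to 500 UMIs, 54.5% of pericytes were positive. Pdgfra was found in 86.6% of OPCs (78.2% to 92.7%) and 58.9% of fibroblasts (48.0% to 69.2%), and in 39.2% and 23.3% after thinning, against 0.549% of microglia. The receptor genes were therefore detected in most cells of their main classes at full depth. Intervals cover counting error only.

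Of the ligand genes, Pdgfb, Pdgfc and Pdgfd were detected in smaller shares of their main classes, with Pdgfc in 15.45% of arterial SMCs (1.59% after thinning). The share for Pdgfa in arterial SMCs was near that of Pdgfra in fibroblasts. Pdgfb was found in 27.9% of capillary ECs (26.5% to 29.3%) and 27.3% of microglia (26.0% to 28.6%), and in 13.2% and 7.10% after thinning, while 1.41% of pericytes were positive. At full depth these 2 classes thus had like shares, although the microglia were deeper (median 2080 against 1071 UMIs). Pdgfa was found in 58.9% of arterial SMCs and 58.2% of choroid plexus epithelium, and in 14.5% and 4.52% after thinning. The near-equal shares at full depth belonged to classes with medians of 3812 and 13260 UMIs and with levels of 304 and 90.8 CPM. Pdgfd was found in 9.14% of capillary ECs and 24.0% of choroid plexus epithelium, but after thinning in 3.52% and 0.915%, so that the order was the reverse of that at full depth.

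**Figure D3:**
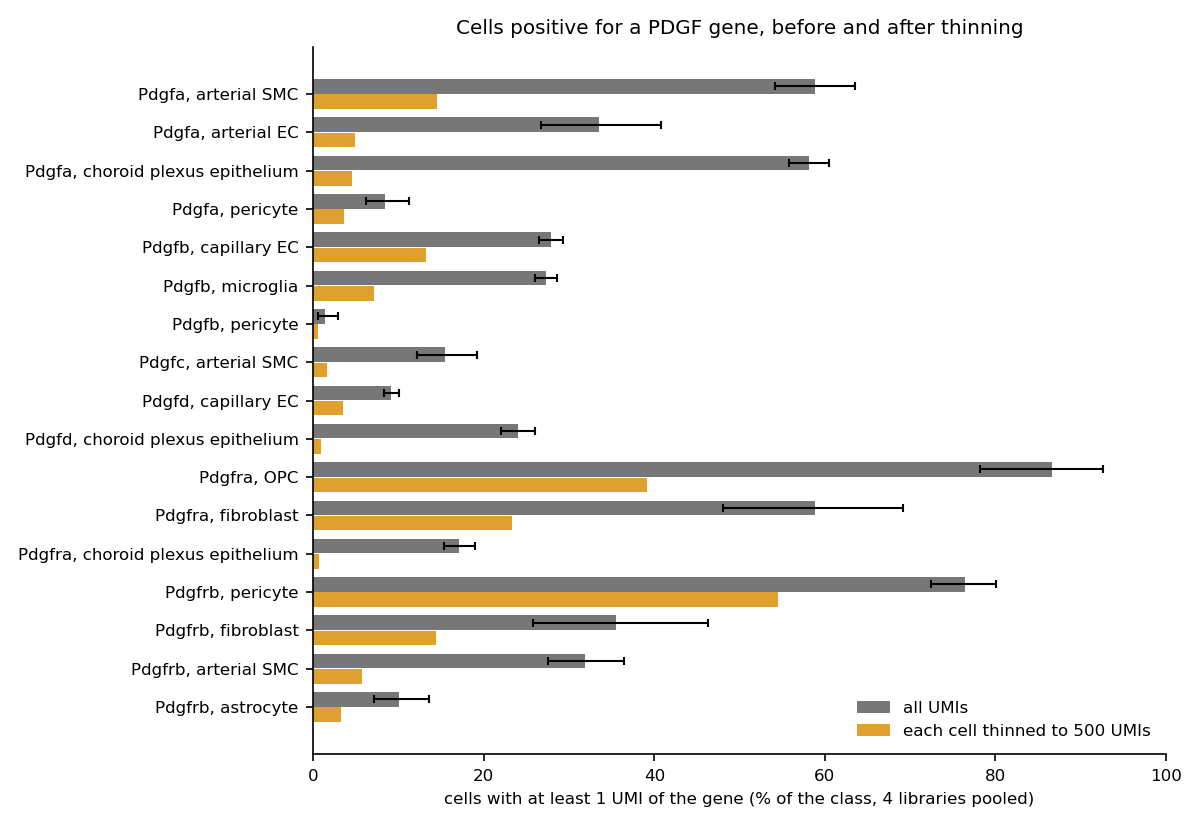
Cells with at least 1 UMI of a gene as a percentage of the class, over the 4 libraries pooled. Grey bars use all UMIs, with exact 95% intervals, and orange bars use cells thinned to 500 UMIs. In choroid plexus epithelium Pdgfa fell from 58.2% to 4.52% of cells, and in pericytes Pdgfrb went from 76.5% to 54.5%.

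Members were also found together in single cells. Among the 90 fibroblasts, 32 had UMIs of Pdgfra alone, 11 of Pdgfrb alone and 21 of both receptor genes. Among the 497 pericytes, 374 had Pdgfrb alone, 6 had both receptor genes and none had Pdgfra alone. Receptor genes thus overlapped in 23.3% of fibroblasts and 1.21% of pericytes. Of the 97 OPCs, 16 had UMIs of both Pdgfa and Pdgfra, and of the 440 arterial SMCs, 107 had both Pdgfa and Pdgfrb. Pdgfb and Pdgfrb were found together in 49 of 4953 ECs (0.989%) against 119 of 851 mixed cells (14.0%), the cells that met several gates and were led by pericyte and arterial genes such as Rgs5 and Gkn3. Cells with a UMI of one member were deeper than those without, by a median of 2693 against 1794 UMIs for Pdgfra in fibroblasts, so that these counts are descriptions.

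The genes whose levels over the 11 classes were most like those of a member were found by Pearson correlation of log2(CPM + 10), among genes with at least 50 CPM in some class. They were Rnf152, Trp53inp2 and Pyurf for Pdgfa (r = 0.909, 0.830 and 0.827), and Tmf1, Arap3 and Adipor1 for Pdgfb (r = 0.968, 0.9504 and 0.941). For Pdgfd they were Fam129b, Id1 and Hyal2 (r = 0.947, 0.926 and 0.923). For Pdgfra they were Lum, itself a fibroblast marker of the gates, Scara5 and Aox3 (r = 0.979, 0.976 and 0.971), and for Pdgfrb Vtn, a pericyte marker of the gates, Axl and Nbl1 (r = 0.966, 0.966 and 0.951). For Pdgfc, which itself stayed under 50 CPM in every class, they were Sh3bgr, Vgll3 and Dmpk (r = 0.960, 0.919 and 0.918). These correlations are over class means from the same 4 libraries, without OPCs.

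CSD was compared with HC on UMIs summed per library and class. Of the 72 combinations of 6 members and 12 classes, 30 passed the filter on low counts, in 9 classes, and ECs as a whole contain the capillary and arterial ECs. None of the 30 was called at an adjusted p of 0.05 in edgeR, while 4 had an unadjusted p under 0.05 (1 each in ECs, arterial ECs, arterial SMCs and choroid plexus epithelium). The share of all genes with an unadjusted p under 0.05 was 7.6% in ECs, 9.03% in capillary ECs, 6.18% in arterial ECs, 5.6% in pericytes, 2.87% in arterial SMCs, 8.47% in fibroblasts, 1.21% in microglia, 3.33% in choroid plexus epithelium and 3.1% in ependymal cells. Over all genes tested the share called was 0.0495% in ECs, 0.437% in capillary ECs, 0.0841% in arterial ECs, 0.0363% in pericytes, 0.0519% in choroid plexus epithelium and 0% in arterial SMCs, fibroblasts, microglia and ependymal cells. Both CSD libraries lay above both HC libraries in 5 of the 30 and below in 9. Over all genes tested, both CSD libraries lay above both HC libraries for 14.1% in ECs, 15.9% in capillary ECs, 17.7% in arterial ECs, 15.2% in pericytes, 16.2% in arterial SMCs, 16.9% in fibroblasts, 7.76% in microglia, 16.5% in choroid plexus epithelium and 18.3% in ependymal cells. They lay below for 25%, 23.9%, 16.1%, 18.5%, 13.4%, 19.6%, 13.8%, 12.1% and 12.8% in the same order, so the counts of members, which share cells and libraries, are descriptions.

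Of the 9, Pdgfb accounted for ECs, capillary ECs and arterial ECs, Pdgfa for capillary ECs, arterial ECs and microglia, Pdgfrb for arterial SMCs, and both receptor genes for fibroblasts. Pdgfb was measured in ECs at 153 and 233 CPM in libraries CSD 1 and CSD 2 and at 258 and 282 CPM in libraries HC 1 and HC 2, so that the groups did not overlap, as for 25% of all genes in this direction. The log2 fold change was -0.42 (SE 0.20, adjusted p = 0.689). In capillary ECs, with 168 and 251 CPM against 284 and 290 CPM, it was -0.39 (SE 0.18, adjusted p = 0.561). In arterial ECs, with 112 and 182 CPM against 270 and 315 CPM, it was -1.11 (SE 0.32, unadjusted p = 0.00186 and adjusted p = 0.294).

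Library CSD 1 had the lowest Pdgfb level in each of these 3 classes. Without library CSD 2, the log2 fold changes of Pdgfb were -0.76 in ECs, -0.70 in capillary ECs and -1.39 in arterial ECs. That fit assumes that the lone CSD library varies like the HC libraries. Without library CSD 1 the changes were -0.18, -0.16 and -0.73. Whether the CSD effect on Pdgfb differed between arterial and capillary ECs was tested with an interaction term and not called (-0.59, SE 0.30, adjusted p = 1, 0.0686% of genes called). Positive capillary ECs made up 20.4% and 33.1% of cells in CSD and 35.2% and 25.2% in libraries HC 1 and HC 2, which overlapped (exact two-sided permutation test, p = 0.667). After thinning they made up 8.68% and 13.24% in CSD and 15.19% and 15.01% in HC, which did not overlap (exact two-sided permutation test, p = 0.333, where 2 against 2 libraries cannot go below 0.33). The share of all genes with this order after thinning was not computed.

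In microglia Pdgfb was at 156 and 125 CPM in CSD and 192 and 156 CPM in HC (-0.27, SE 0.24, adjusted p = 1). Its groups overlapped too in arterial SMCs (0.16, SE 0.46) and choroid plexus epithelium (0.15, SE 0.24), where mean levels were under the mean of free RNA. Microglia had Pdgfa at 37.8 and 29.1 CPM in CSD and 49.0 and 43.9 CPM in HC, which did not overlap, as for 13.8% of all genes in this direction (-0.43, SE 0.21, adjusted p = 1). That level was near free RNA, which held Pdgfa at 36.5 and 31.3 CPM in CSD and 39.9 and 49.9 CPM in HC.

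Of the 5 with both CSD libraries above, Pdgfd accounted for ECs, capillary ECs and choroid plexus epithelium. Pdgfa accounted for pericytes and Pdgfra for choroid plexus epithelium. Pdgfd had the opposite direction to Pdgfb in ECs. It was measured at 78.0 and 72.7 CPM in libraries CSD 1 and CSD 2 and at 63.0 and 59.3 CPM in libraries HC 1 and HC 2, as for 14.1% of all genes with both CSD libraries above both HC libraries. The log2 fold change was 0.36 (SE 0.15, unadjusted p = 0.0458 and adjusted p = 0.649) in ECs and 0.37 (SE 0.18, adjusted p = 0.590) in capillary ECs. In choroid plexus epithelium Pdgfd was at 21.8 and 23.8 CPM in CSD and 19.6 and 16.2 CPM in HC (0.30, SE 0.20, adjusted p = 0.9999). There 16.5% of all genes had this order. Pdgfa in ECs as a whole was at 52.5 and 25.3 CPM in CSD and 54.1 and 46.7 CPM in HC (-0.31, SE 0.32, adjusted p = 0.871). Without library CSD 1 the log2 fold change was -0.96, and library CSD 2 had the fewest arterial ECs, 2.18% of ECs against 3.48% to 5.47% in the others. The part of the arterial share in that value was not tested. In capillary ECs Pdgfa was at 11.6 and 15.4 CPM in CSD and 21.5 and 21.9 CPM in HC, which did not overlap, as for 23.9% of all genes in this direction (-0.60, SE 0.31, adjusted p = 0.628), and every library lay below its free RNA. In arterial ECs themselves Pdgfa was at 204 and 162 CPM in CSD and 210 and 239 CPM in HC (-0.27, SE 0.30, adjusted p = 0.988). In pericytes Pdgfa was at 95.9 and 82.4 CPM in CSD and 51.5 and 68.6 CPM in HC (0.48, SE 0.46, adjusted p = 0.947). There 15.2% of all genes had both CSD libraries above both HC libraries.

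Neither receptor gene passed the test in a class where it was tested. Pdgfrb in pericytes was at 1031 and 1599 CPM in CSD and 1245 and 1399 CPM in HC, with both HC libraries between the CSD libraries (0.04, SE 0.24, adjusted p = 0.996). In arterial SMCs it was at 89.5 and 82.2 CPM in CSD and 136 and 107 CPM in HC (-0.54, SE 0.24, unadjusted p = 0.0428 and adjusted p = 1). In fibroblasts Pdgfra was at 234 and 277 CPM in CSD and 365 and 660 CPM in HC (-0.96, SE 0.46, adjusted p = 0.660). Pdgfrb was there at 141 and 69.2 CPM against 213 and 207 CPM (-0.90, SE 0.49, adjusted p = 0.746). With 1 library left out in turn, these changes ranged from -1.39 to -0.46 for Pdgfra and from -1.48 to -0.62 for Pdgfrb. The fibroblast sums came from 13 to 41 cells per library. Their 7 marker genes summed to 9283 and 6766 CPM in CSD and 9542 and 14850 CPM in HC, with libraries CSD 1 and HC 1 close. The part of the markers in these values was not tested.

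In OPCs Pdgfra was at 1334 and 1397 CPM in CSD and 1587 and 1733 CPM in HC, from 36, 36, 16 and 9 cells. These values were not tested, since 1 library had under 10 cells, and the share of all genes with this order in OPCs was not computed. In choroid plexus epithelium Pdgfra was at 19.0 and 20.7 CPM in CSD and 13.2 and 12.2 CPM in HC (0.60, SE 0.20, unadjusted p = 0.00753 and adjusted p = 0.9999). Free RNA held Pdgfra at 10.2 and 52.2 CPM in CSD and 12.1 and 19.96 CPM in HC, and the part of free RNA in the difference was not tested.

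**Figure D4:**
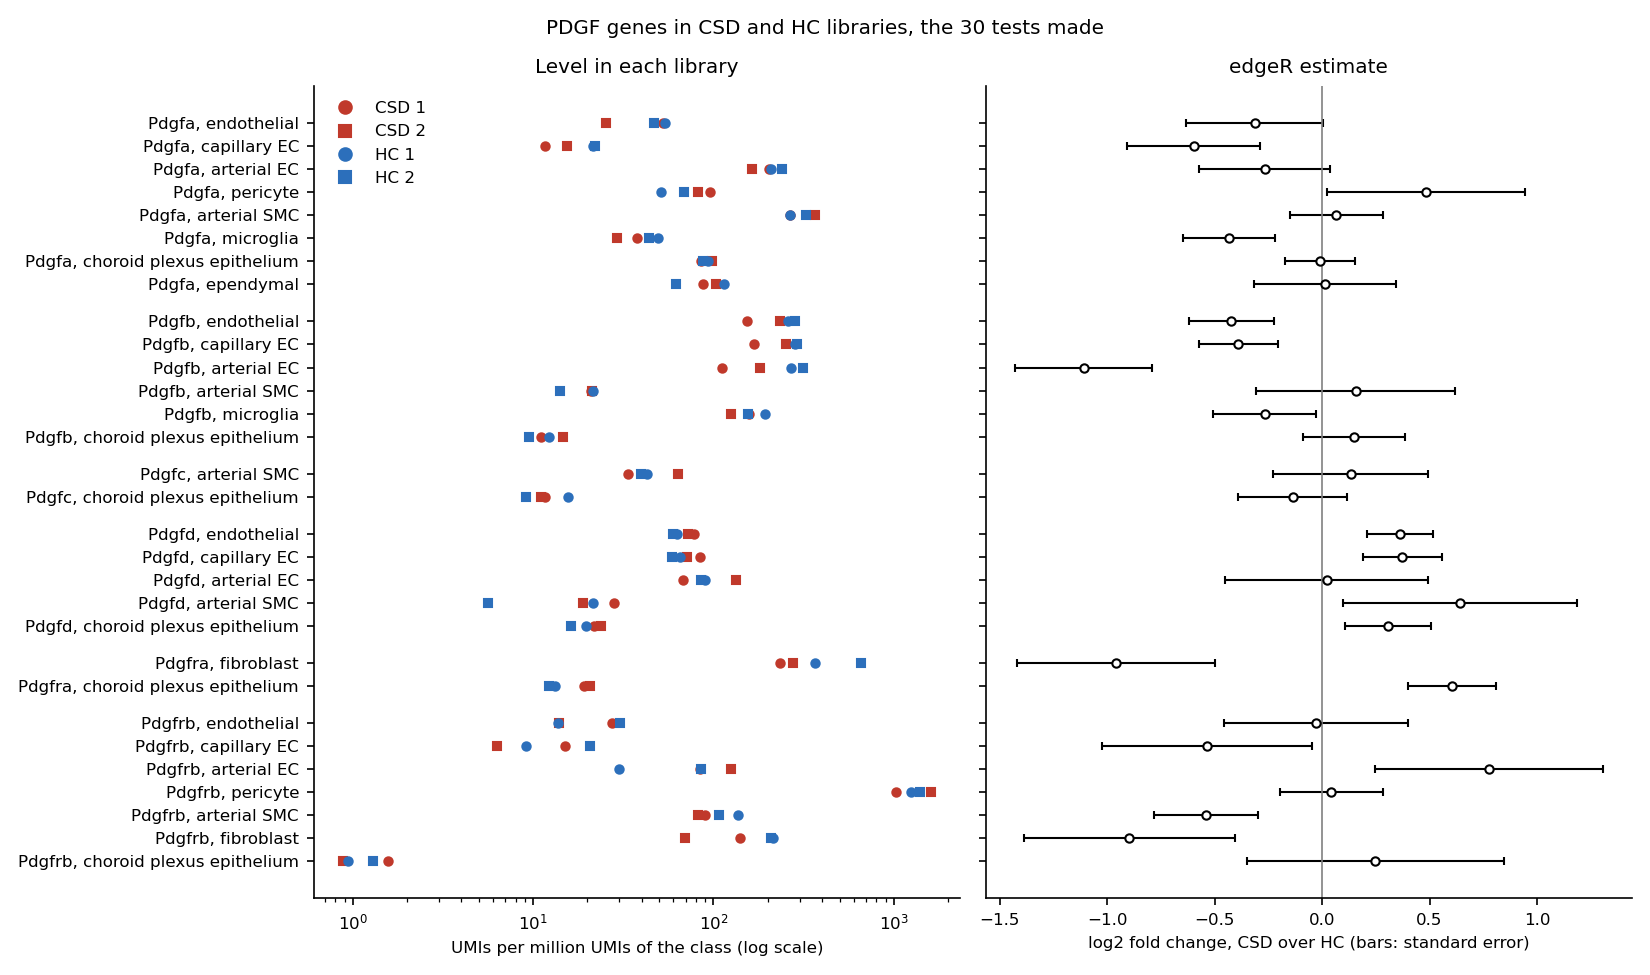
PDGF genes in the 30 combinations of gene and class that were tested. Left, the level in each library (CPM of the class, log scale, red CSD and blue HC). Right, the log2 fold change of CSD over HC with its standard error, open since no adjusted p was under 0.05. Pdgfb in arterial ECs (-1.11) and Pdgfra in fibroblasts (-0.96) lay farthest below 0.

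Other genes of the pathway were read from 3 lists, which were chosen with earlier results of these data known. Of 12 genes for processing, retention and binding of PDGFs, 7 were tested in capillary ECs. In that class 0.437% of all genes were called, and 1 of the 7 was. This was Plat, tissue plasminogen activator, a protease that activates PDGF-C, which rose from 249 and 280 CPM in HC to 537 and 474 CPM in CSD (0.99, SE 0.16, adjusted p = 0.0143). The call was lost without library HC 1 (0.93, adjusted p = 0.387), with cells of at least 1000 UMIs (0.86, adjusted p = 0.0699) and with mixed cells kept (0.91, adjusted p = 0.0655). The median log2 fold change over the 7 genes was 0.25, against 0.0026 over all genes tested in capillary ECs. The list was not tested as a set.

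Of 22 genes of PDGF receptor signalling (adaptors such as Grb2 and Shc1, kinases such as Src), 21 were tested in capillary ECs, 12 in pericytes and 19 in arterial SMCs, and none was called in any class. Their median log2 fold changes were 0.05, -0.05 and 0.15, against 0.0026, 0.0065 and 0.0045 for all genes tested in these classes. Of 11 other VEGF and PDGF family genes, ligand genes such as Vegfa and receptor genes such as Kdr, none was called in any class either. Of these, 7 were tested in ECs (median -0.17) and 8 in choroid plexus epithelium (median 0.34).

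Beside these EC values, a list of 12 immediate-early genes, which cell isolation can induce, was read. It too was chosen with earlier results of these data known. They summed to 15980 and 19540 CPM in CSD and 12200 and 13450 CPM in HC in ECs, which did not overlap. How often such sums did not overlap was not computed. All 12 were tested in ECs, where none was called, and in capillary ECs, where 1 of the 12 was. This was Fosb, with 1597 and 1824 CPM in CSD against 1038 and 897 CPM in HC (0.88, SE 0.16, adjusted p = 0.0316). That call was lost without library HC 1 (1.01) or library HC 2 (0.76). Over the settings that kept all libraries, calls of Plat or Fosb were lost in 5 cases, which include those of Plat given above. In pericytes the sum was 16090 and 21840 CPM in CSD and 13700 and 19660 CPM in HC, which overlapped. The part of these genes in the values of Pdgfb, Pdgfd and Plat was not tested.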

How the data were processed

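For each library the authors deposited UMI counts of every gene and barcode, without cell calling or normalization, made with Cell Ranger (4.0 per the labels, though the headers and the study's methods name other versions) on GRCm38. The counts measure polyadenylated RNA from pooled mice, and no other unit was used. Here cells were filtered as in the report. A cell entered the class of its highest marker score if at least 2 markers were detected and no other class reached 0.6 of that score. Scrublet (scanpy 1.11.5) marked 123 of 14415 cells, which were kept. It marked 0.0981% and 0.431% of cells in the CSD libraries and 1.23% and 1.48% in the HC libraries, against 6% expected, so other doublets may remain in any library. Cluster names of the study were not used here.

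UMIs summed per library and class were tested with edgeR 4.0.16 (filterByExpr, TMM, quasi-likelihood, two-sided, Benjamini-Hochberg over all genes of a fit). Contrasts between classes had the library as a block. DESeq2 1.42.0, other filters and left-out libraries were alternatives. The script was tested on simulated data. Shares have exact Clopper-Pearson intervals, and a share of 0 has the limit that 3 counts allow. Genes named are the 6 members, the called genes of the lists (at most 5 per class and direction) and the 3 most alike genes per member. The members, lists and markers were chosen with earlier results of these data known. The depth limits low genes, since 3 counts correspond to 1.35 to 1.58 CPM in ECs of a library.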

Additional observations from a re-analysis of the deposited data

Results flagged for a closer look

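Pdgfra was measured at 52.2 CPM in free RNA of library CSD 2 (75 UMIs, counting interval 41.1 to 65.5), in barcodes that no test used, and this library entered the free RNA mean of 23.6 CPM given beside the classes. It was above library HC 1 (12.1 CPM, 6.42 to 20.6) and library HC 2 (19.96 CPM, 11.4 to 32.4), and these intervals, which cover counting error only, did not overlap that of library CSD 2. Library CSD 1 was at 10.2 CPM (4.87 to 18.7), so the higher level was found in 1 of 2 CSD libraries. The other 5 members had no CSD library whose interval lay above both HC libraries. The share of all genes with this order in free RNA was not computed, and library CSD 2 stood apart in its UMIs in cells (32.6%).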

How the results depend on the processing

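With 2 libraries per condition and small classes, the number of all genes called in CSD against HC changed with several settings. It changed little with others, such as leaving out cells marked by Scrublet (43 against 40 genes in capillary ECs). No alternative that kept all libraries called a member. Leaving out 1 library in turn leaves 1 library in a condition, and changes of members in such fits are given beside the values above. Calls of members did occur among these fits. They are not read as results, since a lone library shows no spread within its condition. DESeq2 called 60 genes in ECs, 1 in arterial ECs, 0 in pericytes, 9 in fibroblasts and 1 in microglia. No filter on low counts gave 91 genes in ECs, 192 in capillary ECs, 9 in arterial ECs, 2 in pericytes, 10 in arterial SMCs, 65 in fibroblasts, 20 in microglia, 36 in choroid plexus epithelium and 14 in ependymal cells, and 1206 in pericytes against fibroblasts. Cells of at least 1000 UMIs gave 10 in ECs, 14 in capillary ECs, 1 in arterial ECs and 0 in pericytes. At least 3 markers gave 8 in arterial ECs and 6 in fibroblasts. Mixed cells kept, chosen after seeing the data, gave 8 in capillary ECs, 7 in arterial ECs, 2231 in arterial and 487 in venous against capillary ECs, where DESeq2 gave 147.

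The numbers 1 and 2 are shared by CSD and HC libraries, but nothing in the labels pairs them, and same-numbered libraries deviated together with r from -0.0017 to 0.389 over classes. With the replicate number as a block, 115 genes were called in ECs, 22 in capillary ECs, 17 in arterial ECs, 0 in pericytes, 5 in arterial SMCs, 18 in fibroblasts, 8 in microglia and 18 in choroid plexus epithelium, and no member. Without the block, the differences of Pdgfa between ECs and pericytes (-0.69, adjusted p = 0.0981) and between venous and capillary ECs (1.93, adjusted p = 0.0662) were no longer called.

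Leaving out 1 library gave 1 to 524 genes called in ECs, 1 to 381 in capillary ECs, 5 to 25 in arterial ECs, 3 to 13 in pericytes, 5 to 36 in arterial SMCs, 0 to 61 in fibroblasts, 0 to 9 in microglia, 0 to 58 in choroid plexus epithelium, 0 to 41 in ependymal cells and 135 to 240 in venous against capillary ECs. For differences of the CSD effect it gave 0 to 2 (pericytes and arterial SMCs, also ECs and pericytes) and 3 to 9 (arterial and capillary ECs). Changes in CSD of members that turned direction, none of them called with all libraries, ranged for Pdgfa from -0.96 to 0.12 in ECs, -0.17 to 0.28 in arterial SMCs, -0.13 to 0.13 in choroid plexus epithelium and -0.31 to 0.59 in ependymal cells. They ranged for Pdgfrb from -0.62 to 0.64 in ECs, -1.23 to 0.19 in capillary ECs, -0.32 to 0.28 in pericytes and -0.34 to 0.51 in choroid plexus epithelium. They ranged for Pdgfd from -0.38 to 0.56 in arterial ECs, for Pdgfb from -0.072 to 0.56 in arterial SMCs and -0.015 to 0.43 in choroid plexus epithelium, and for Pdgfc from -0.34 to 0.57 and -0.47 to 0.28 in the same classes. Differences of the CSD effect ranged from -3.73 to 2.74 (Pdgfc, pericytes and arterial SMCs), -0.035 to 0.74 and -0.81 to 0.35 (Pdgfa and Pdgfd, arterial and capillary ECs), and -0.66 to 0.80, -4.83 to 0.45 and -0.93 to 0.85 (Pdgfb, Pdgfd and Pdgfrb, ECs and pericytes).

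With all libraries, the change in CSD turned direction for Pdgfrb in pericytes with at least 3 markers (-0.0019) and for Pdgfa in ependymal cells without the filter (-0.029). With mixed cells kept it turned for Pdgfrb in arterial ECs (-0.20) and pericytes (-0.088) and for Pdgfb in arterial SMCs (-0.59). Between classes, Pdgfa in ECs against pericytes ranged from -1.02 to -0.41 with 1 library left out and was not called with DESeq2 (-0.71), without the filter (-0.63) or with at least 1000 UMIs (-0.71). Pdgfa in venous against capillary ECs ranged from 1.61 to 2.34 and was not called without the filter (1.87), with at least 3 markers (1.82) or with mixed cells (0.76), and Pdgfb there was not called with DESeq2 (-1.54). Pdgfa in ECs against microglia turned to 0.082 with at least 1000 UMIs and to 0.47 with mixed cells, Pdgfd in arterial against capillary ECs turned to -0.0083 with at least 3 markers, and mixed cells gave calls for Pdgfb in arterial (-0.38) and Pdgfd in venous against capillary ECs (-1.24). The other 139 values between classes stayed on their side of the threshold. As means over libraries, thinned shares were 14.8% for Pdgfa, 2.26% for Pdgfc (arterial SMCs), 13.03% for Pdgfb (capillary ECs), 4.45% for Pdgfd (arterial ECs), 44.6% for Pdgfra (OPCs) and 52.9% for Pdgfrb (pericytes), and OPCs of at least 1000 UMIs were 91.5% positive for Pdgfra. Where no value shows it, the cause was not tested.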
